A study of Homo sapiens with 4 samples.

Results

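Imprinted genes are transcribed mainly or only from the copy inherited from 1 parent. Here 10 of them, chosen by name, were followed in the 60564 genes counted in the human embryonic stem cell (ESC) line Elf1. They are H19, IGF2, KCNQ1OT1, CDKN1C, MEG3, SNRPN, PEG10, MEST, PEG3 and NNAT, and each was found by its Ensembl identifier in the deposited counts. RNA-seq had been made from 2 libraries of 2-D grown cells, attached to plastic coated with Matrigel, and 2 libraries of 3-D grown cells. For the latter, cells were separated, enclosed in scaffolds of the polymers PEG-8-SH and PEG-8-Acr as these assembled, and kept there until day 21. Both groups were Elf1 cells in the same ESC expansion medium, which holds FGF2, LIF, CHIR99021 and a MEK inhibitor, so the culture format and the time spent in it differ together. Elf1 is a single naïve line, the study expanded it on mouse feeder cells and moved it to plates without feeders before the scaffolds were made, and the counts do not separate the parental alleles. A value here is the RNA of both alleles together.

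At most imprinted loci a differentially methylated region, set in the egg or sperm and kept through the divisions of the early embryo, decides which allele is read. DNMT1 and UHRF1 copy the methylation at replication, and the zinc finger protein ZFP57 binds the methylated hexamer TGCCGC there and recruits TRIM28 and SETDB1. Several of the genes come in pairs with opposite parental expression. CTCF bound to the maternal allele keeps enhancers away from IGF2 and leaves them to H19, and the paternal noncoding RNA KCNQ1OT1 silences CDKN1C beside it. Loss of imprints is a known feature of some human naïve ESC cultures, which is why these genes are often followed in them.

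Start-site sequences of 4 of the 10 genes, H19, MEG3, SNRPN and MEST, are held in the RefSeq promoter table on GRCh38.p14, the hg38 build of the counts. That table has 13 windows for them, all identical to hg38. Each covers 250 bases before and 50 bases after a start and overlaps other windows of its gene in some cases. For IGF2, KCNQ1OT1, CDKN1C, PEG10, PEG3 and NNAT no window is shown. The sequences below run 5′ to 3′ on the strand of the gene, and capitals mark TGCCGC or its complement GCGGCA, the letters that ZFP57 reads. They are shown because SNRPN and MEST were lower in 3-D grown cells, MEG3 had the highest count, and H19 one of the lowest.
SNRPN and SNURF, shared start, chr15:24954737-24955036, plus strand: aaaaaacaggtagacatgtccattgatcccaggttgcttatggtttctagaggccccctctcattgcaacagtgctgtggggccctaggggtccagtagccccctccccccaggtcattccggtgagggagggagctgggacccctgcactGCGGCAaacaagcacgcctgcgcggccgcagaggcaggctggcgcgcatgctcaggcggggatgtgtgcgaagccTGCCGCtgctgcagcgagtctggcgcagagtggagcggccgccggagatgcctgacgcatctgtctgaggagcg
MEST, chr7:130491835-130492134, plus strand: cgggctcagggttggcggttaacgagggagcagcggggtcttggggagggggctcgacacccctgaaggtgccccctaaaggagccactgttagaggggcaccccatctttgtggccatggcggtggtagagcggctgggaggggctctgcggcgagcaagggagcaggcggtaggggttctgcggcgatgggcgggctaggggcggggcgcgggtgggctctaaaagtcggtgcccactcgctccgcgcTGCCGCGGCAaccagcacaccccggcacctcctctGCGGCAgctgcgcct
MEG3, chr14:100825882-100826181, plus strand: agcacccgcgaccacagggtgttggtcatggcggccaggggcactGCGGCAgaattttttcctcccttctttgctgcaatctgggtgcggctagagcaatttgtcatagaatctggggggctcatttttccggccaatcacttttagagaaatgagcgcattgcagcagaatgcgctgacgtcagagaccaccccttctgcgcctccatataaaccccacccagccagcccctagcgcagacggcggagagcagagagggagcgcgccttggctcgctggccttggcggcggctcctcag
H19, chr11:2001217-2001516, minus strand: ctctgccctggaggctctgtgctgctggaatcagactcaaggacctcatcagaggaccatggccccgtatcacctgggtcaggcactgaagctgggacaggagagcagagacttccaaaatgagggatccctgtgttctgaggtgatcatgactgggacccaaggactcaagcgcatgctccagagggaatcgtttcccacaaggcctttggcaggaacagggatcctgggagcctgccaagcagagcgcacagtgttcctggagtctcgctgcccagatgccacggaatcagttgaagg
The SNRPN window holds 2 matches, the MEST window 3, of which 2 overlap in a palindrome, the MEG3 window 1 and the H19 window 0. The windows printed for SNRPN and MEST are those with the most matches of their gene, so they are no fair sample of it. The other 3 windows of SNRPN hold 0, 0 and 1 matches, the other 4 of MEST 1, 1, 0 and 2, and the other 2 of MEG3 1 each. Counted on both strands, 16.7% of the 35116 windows of the table hold at least 1 match, 2.75% at least 2 and 0.441% at least 3. Sites where C is followed by G number 18 in the SNRPN window, 25 for MEST, 18 for MEG3 and 6 for H19, against a median of 14 over the table. A match is a run of letters and not a measured binding site, and no methylation was measured here.

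By their counts, the 10 genes fell into an expressed and a nearly silent group. Levels are given as CPM, counts relative to the library total after scaling by the trimmed mean of M values (TMM). To compare genes, they were divided by the exon kilobases that no other same-strand gene covers, ignoring copies elsewhere in hg38. These lengths come from a later GENCODE release than the counts. Of the 10 genes, only MEST, MEG3, NNAT and PEG3 have the same model version in both, so levels per kb of the others are approximate. On that scale MEST had 33.1 and PEG10 31.6 CPM per kb as means of the 4 libraries, and their ranges overlapped, so their order is not set. MEG3 followed with 25.5, SNRPN with 16.0 and NNAT with 11 CPM per kb, and none of these ranges overlapped the next. These 5 genes stood at percentiles 80.5 to 94.3 of the tested genes. KCNQ1OT1, whose model covers 92625 bases, had 0.977 CPM per kb (percentile 29.4), which is 11.2-fold below NNAT.
At the bottom, CDKN1C had 0.275, H19 0.186, IGF2 0.0387 and PEG3 0.00371 CPM per kb. The ranges of CDKN1C and H19 overlapped, as did those of H19 and IGF2. By these counts H19, IGF2 and CDKN1C, which are abundant in the fetus and placenta, were at the edge of detection in both cultures. Their domain neighbour KCNQ1OT1 was not. H19 and CDKN1C each have a near-identical copy on another contig of hg38, so reads may be missing and their low levels are uncertain.

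**Figure D1:**
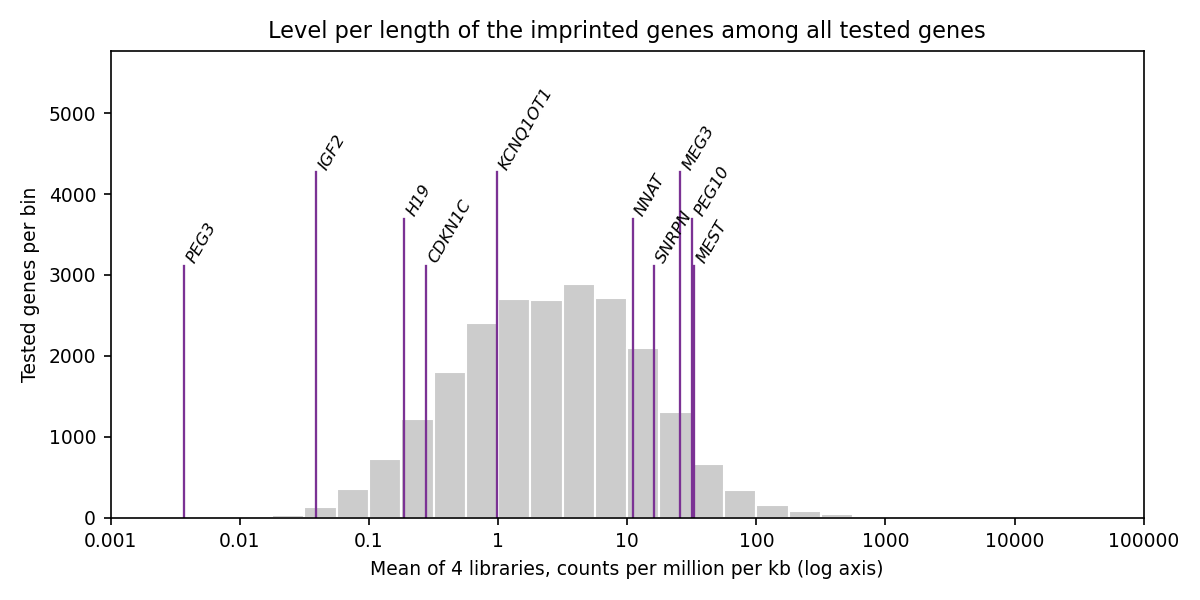
Grey bars count the tested genes by mean level over the 4 libraries, in CPM per kb on a log axis, and purple lines mark the 10 imprinted genes. MEST, PEG10, MEG3, SNRPN and NNAT lie to the right of the bulk of genes, and H19, IGF2 and PEG3 at its left edge or beyond.

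**Figure D2:**
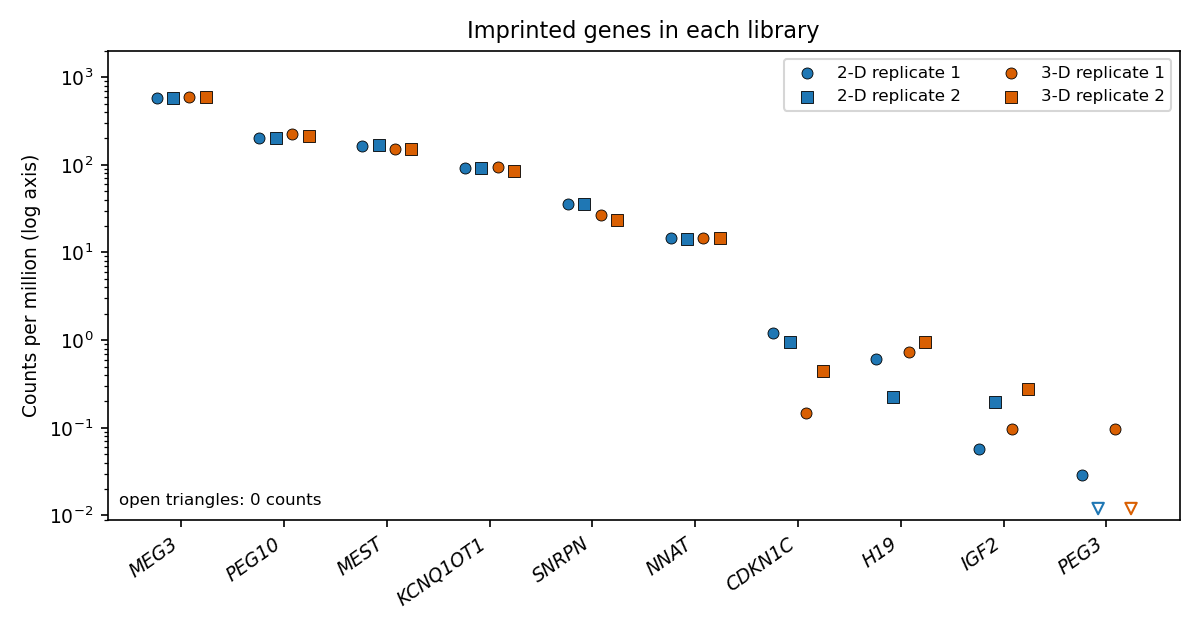
CPM of each imprinted gene in each library on a log axis, with 2-D libraries in blue, 3-D libraries in orange, and open triangles for 0 counts. The colours separate clearly for SNRPN and CDKN1C, and lie close together for MEG3, NNAT and KCNQ1OT1.

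Of the 10 genes, 8 passed the filter on low counts and were tested in the edgeR quasi-likelihood fit, and 4 of them were called, which means an adjusted p (Benjamini-Hochberg) below 0.05. PEG10 was higher in 3-D grown cells, and SNRPN, MEST and CDKN1C were lower. In the same fit 7.9% of all 22555 tested genes were called, 4.54% as higher and 3.36% as lower. With library totals alone as the scale, the calls over all genes changed from 1024 higher and 758 lower to 514 higher and 1879 lower, while the median shift of all genes was only -0.06 (log2). Libraries of the conditions did not overlap for 7 of the 8 genes, against 50.5% of all tested genes. The median log2 fold change of the 8 was 0.0015, against -0.0001 over all tested genes, so they did not move one way. IGF2 and PEG3 did not reach the filter, CDKN1C reached it in both 2-D libraries and 1 of 2 3-D libraries, and H19 in 1 of 2 2-D libraries and both 3-D libraries, so their passing is not independent of their difference. Counts of H19 and CDKN1C are also uncertain, because each has a copy on an unplaced or alternate contig of hg38 that matches its transcript over its length, at 100% and 99.845% identity; how reads with several matches were treated is not stated. Without these, 6 genes were tested and 3 called.

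**Figure D3:**
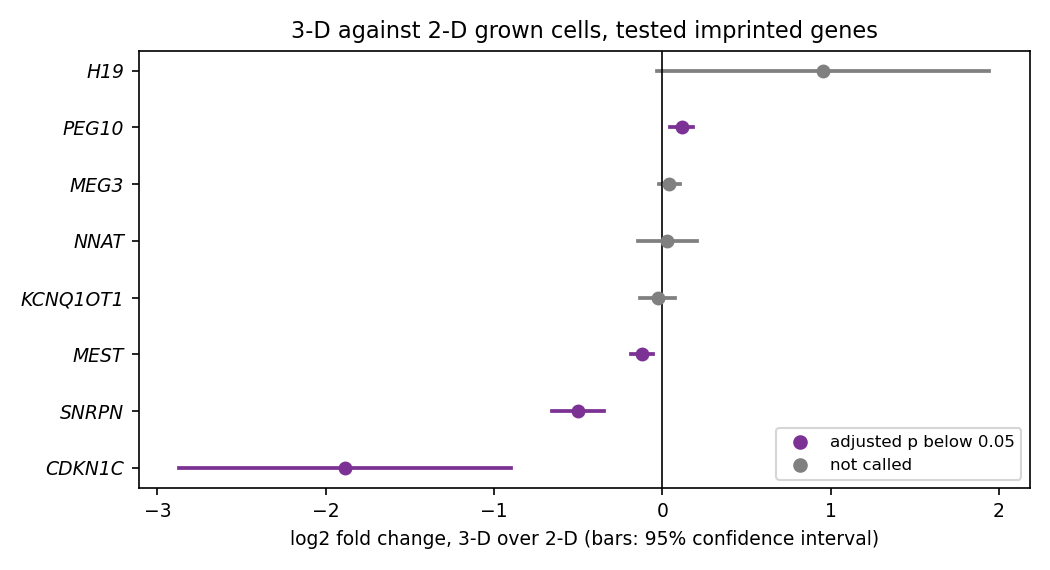
Points are log2 fold changes of 3-D over 2-D grown cells for the 8 tested imprinted genes and bars are 95% confidence intervals, with purple for an adjusted p below 0.05. SNRPN and CDKN1C lie well left of 0, whereas MEST and PEG10 lie within 0.12 of it on either side.

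The clearest difference was in SNRPN (ENSG00000128739, chr15:24823637-24978723), a paternally expressed gene of the 15q11-q13 domain that encodes a core protein of the spliceosomal snRNPs. Its CPM was 36.0 and 35.6 in 2-D grown cells and 27.0 and 23.5 in 3-D grown cells. Both 3-D libraries were below both 2-D libraries by more than the spread within either group. The means were 35.8 ± 0.267 and 25.3 ± 2.41 CPM (SD, n = 2), and the log2 fold change was -0.50 ± 0.07 (SE; 95% interval -0.66 to -0.35; edgeR adjusted p = 0.00111). In 3-D grown cells its level was thus 0.707 of that in 2-D grown cells. SNRPN was called under each of the 11 alternative settings that were run, with log2 fold changes from -0.61 to -0.41.
The gene models used here come from a later GENCODE release than the counts, and the model version of SNRPN differs between them. Which of its bases were counted is therefore not known exactly. In the later models only 1912 of its 3408 exon bases are free of other genes on its strand. It shares 813 bases with SNURF, 141 with SNHG14 and others with further genes on its strand. Reads in such shared bases are missing from these files. Of 535 genes that lie in exons of a host with at least 1000 counts on the same strand, 480 were at 0, against 6 of 418 on the opposite strand. As with each gene here, fewer cells that transcribe it and less RNA per cell cannot be told apart in bulk RNA.
The other genes of 15q11-q13 give its surroundings. SNURF, which starts at the same promoter and encodes a small upstream reading frame, had 3.08 and 2.21 CPM in 2-D and 1.07 and 1.51 CPM in 3-D grown cells, a log2 fold change of -1.05 ± 0.26 (SE, edgeR adjusted p = 0.0243). That call rests on 22 to 106 counts a library and was lost without 2-D replicate 1 (adjusted p = 0.237) or without 3-D replicate 1 (0.0946). SNHG14 (chr15:24978583-25420336), the long paternal host transcript of the SNORD115 and SNORD116 small RNAs whose far end runs antisense to UBE3A, was the most abundant of the imprinted transcripts by count. It had 2490 and 2507 CPM in 2-D and 2323 and 2247 CPM in 3-D grown cells, a log2 fold change of -0.13 ± 0.03 (SE, edgeR adjusted p = 0.0198). The call of SNHG14 was lost with edgeR's likelihood ratio test (adjusted p = 0.237) and kept with DESeq2 (0.000347). It was also lost when either 2-D library was left out (log2 fold change -0.13 and -0.12).
Within a library the ratio of 2 genes needs no scaling. Per 100 counts of SNHG14 there were 1.44 and 1.42 counts of SNRPN in 2-D and 1.16 and 1.05 in 3-D grown cells. UBE3A, the ubiquitin ligase read from the maternal allele in neurons, had 177, 173, 174 and 173 CPM (log2 fold change -0.01 ± 0.03, edgeR adjusted p = 0.842). Of the 7 tested genes of the domain other than SNRPN, 6 had a log2 fold change below 0, against 11283 of all 22555 tested genes. Of the 7, 2 were called, both lower, against 3.36% of all tested genes called lower. As given above, neither of these 2 calls held in every alternative.

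**Figure D4:**
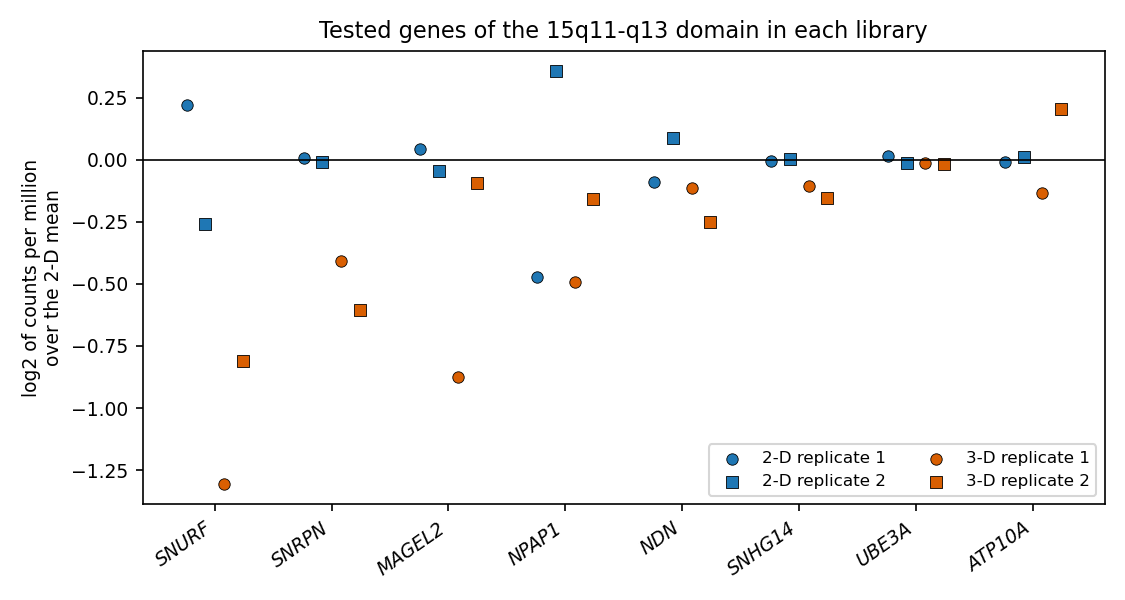
Each point is 1 library, as log2 of its CPM over the mean of the 2-D libraries, for the tested genes of 15q11-q13. Both 3-D points of SNURF, SNRPN and SNHG14 lie below both of their 2-D points, as do those of MAGEL2 and NDN, which were not called. All 4 points of UBE3A lie at 0.

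MEST and PEG10 are paternally expressed genes on the long arm of chromosome 7, and they differed in opposite directions by small amounts. MEST (ENSG00000106484, chr7:130486171-130506465) encodes a hydrolase of mesoderm and of growing tissues. It had 162 and 167 CPM in 2-D and 151 and 151 CPM in 3-D grown cells. The 3-D libraries were nearly equal and both lower. The log2 fold change was -0.12 ± 0.03 (SE; 95% interval -0.19 to -0.05; edgeR adjusted p = 0.0295). The call was lost without 2-D replicate 1 (adjusted p = 0.134), without 2-D replicate 2 (0.378), and with either other test.
PEG10 (ENSG00000242265, chr7:94656325-94669695) is derived from a retrotransposon, is needed for the placenta and encodes a Gag-like protein. Its CPM was 202 and 203 in 2-D and 224 and 215 in 3-D grown cells, a log2 fold change of 0.12 ± 0.03 (SE; 95% interval 0.05 to 0.18; edgeR adjusted p = 0.0411). PEG10 lost its call in 6 of the 11 alternatives, among them leaving out either 2-D library (adjusted p = 0.336 and 0.286). Neighbours on the opposite strand, which were counted apart, were not called. COPG2, a coatomer gene that overlaps the end of MEST and was the other gene of 7q32 with the highest level per length, had 52.4, 55.9, 53.5 and 52.0 CPM. MESTIT1, a noncoding RNA antisense to the start of MEST, had a log2 fold change of 0.04 ± 0.09 (SE). SGCE, which diverges from the start of PEG10, had one of 0.07 ± 0.06 (SE). TFPI2, a protease inhibitor with the highest level per length besides PEG10 in 7q21, had 13.5, 13.2, 14.6 and 14.3 CPM and an adjusted p of 0.505 in the edgeR fit.

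The 11p15.5 domain holds 4 of the genes. H19 (ENSG00000130600, chr11:1995166-2004552), a maternally expressed noncoding RNA, had 21 and 7 counts in 2-D and 15 and 17 counts in 3-D grown cells, or 0.610, 0.227, 0.730 and 0.948 CPM. Both 3-D libraries were above both 2-D libraries, but the 2-D libraries differed from each other by more than the nearest libraries of the conditions did, and the log2 fold change of 0.96 ± 0.45 (SE; 95% interval -0.03 to 1.94) was not called (edgeR adjusted p = 0.251). Leaving out 2-D replicate 1 gave 1.85 and leaving out 2-D replicate 2 gave 0.45, so its size depends on which 2-D library is kept. IGF2 (ENSG00000167244, chr11:2129112-2158391), the paternally expressed growth factor, had 2, 6, 2 and 5 counts. Pooled by condition these are 8 and 7 counts, a ratio of 3-D over 2-D of 1.48 with an exact 95% counting interval of 0.458 to 4.68, so a difference was not detectable at this depth.
KCNQ1OT1 (ENSG00000269821, chr11:2597308-2700003) had 91.6 and 91.3 CPM in 2-D and 95.2 and 84.0 CPM in 3-D grown cells, and the 3-D libraries lay on either side of the 2-D libraries. Its log2 fold change was -0.03 ± 0.05 (SE, edgeR adjusted p = 0.814). Without 3-D replicate 1 it was -0.12 and called (adjusted p = 0.0463), and without 3-D replicate 2 it was 0.06.
CDKN1C (ENSG00000129757, chr11:2883213-2885775), the maternally expressed inhibitor of cyclin-dependent kinases p57, had 41 and 29 counts in 2-D and 3 and 8 in 3-D grown cells, or 1.19, 0.941, 0.146 and 0.446 CPM. The log2 fold change was -1.88 ± 0.45 (SE; 95% interval -2.87 to -0.90; edgeR adjusted p = 0.0235), the largest in size among the 8 tested genes. Pooled counts of 70 and 11 give a 2-D level 3.75-fold that of 3-D. The exact 95% counting interval, 1.97 to 7.86, leaves out the variation between replicates. The call was lost without 2-D replicate 1 (adjusted p = 0.107) or without 3-D replicate 1 (0.121), and the gene has the copy named above. Its log2 fold change was -1.26 when 3-D replicate 1 was left out and -2.84 when 3-D replicate 2 was. Of the other 9 listed genes of 11p15.5, 3 were tested and 0 called (edgeR; 0 also at an unadjusted p below 0.05). The highest per length was NAP1L4, a histone chaperone gene that also has such a copy, with 17.5, 33.8, 31.3 and 32.2 CPM.

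MEG3 (ENSG00000214548, chr14:100779410-100861031), the maternally expressed noncoding RNA of 14q32, had the most counts of the 10 genes, 10579 to 19856 a library. Its CPM was 577 and 577 in 2-D and 597 and 590 in 3-D grown cells. The groups did not overlap, but the log2 fold change was 0.04 ± 0.03 (SE; 95% interval -0.02 to 0.10; edgeR adjusted p = 0.473). Silencing of MEG3 is a known defect of some pluripotent lines, and its level here was at percentile 92.2 of the tested genes.
MEG8, its downstream maternal transcript and host of the SNORD113 and SNORD114 small RNAs, had 354, 358, 341 and 336 CPM (log2 fold change -0.07 ± 0.03, adjusted p = 0.179). Per 100 counts of MEG3 there were 61.4 and 62.1 counts of MEG8 in 2-D and 57.2 and 57.0 in 3-D grown cells. The paternal genes DLK1, a Notch-family ligand, and RTL1, a retrotransposon-derived placental gene, had log2 fold changes of 0.28 ± 0.13 and 0.03 ± 0.05 (SE), and of the 4 other listed genes of 14q32, 3 had an unadjusted p below 0.05, against 21.3% of all tested genes, and 0 were called by edgeR.
NNAT (ENSG00000053438, chr20:37521206-37523690), a paternally expressed proteolipid gene within an intron of BLCAP, had 14.6, 14.3, 14.7 and 14.7 CPM. Both 3-D libraries lay just above both 2-D libraries, and the log2 fold change was 0.03 ± 0.08 (SE; 95% interval -0.15 to 0.21; edgeR adjusted p = 0.883). HM13, a signal peptide peptidase gene with the highest level per length besides NNAT in 20q11, had 66.2, 66.2, 74.8 and 70.6 CPM. It stayed just short of a call (0.14 ± 0.04, edgeR adjusted p = 0.0535).
PEG3 (ENSG00000198300, chr19:56810077-56840728), a paternally expressed zinc finger gene, had 1, 0, 2 and 0 counts. A count of 0 in the second library of each condition allows up to 0.0974 and 0.167 CPM, counting error only, and no fold is given. ZNF331, the highest per length among the other genes of 19q13, had 59.4, 58.7, 61.7 and 60.9 CPM and was not called.

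Beyond these 10, 66 further imprinted genes were listed by domain, of which 63 were matched and 39 tested. Of these, 20 had a log2 fold change above 0 and 19 below, with a median of 0.03. None was called higher and 3 were called lower, SNURF, SNHG14 and AIRN (edgeR), against 4.54% and 3.36% of all tested genes. Before adjustment, 9 of the 39 had a p below 0.05, against 21.3% of all tested genes. AIRN, the paternal noncoding RNA antisense to IGF2R, had 1.86 and 2.37 CPM in 2-D and 1.22 and 1.004 CPM in 3-D grown cells (-0.91 ± 0.25, adjusted p = 0.0450). Its call was lost without 2-D replicate 1 (adjusted p = 0.0608), 2-D replicate 2 (0.326) or 3-D replicate 2 (0.125). IGF2R, the receptor that clears IGF2, had 325, 320, 333 and 336 CPM and was not called (adjusted p = 0.349). GNAS, the stimulatory G protein subunit and highest per length in 20q13, had a log2 fold change of 0.09 ± 0.03 (adjusted p = 0.112), and INPP5F, a phosphatase and highest among the genes outside the domains, one of 0.03 ± 0.03 (adjusted p = 0.618).

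Among the genes that set or keep imprints, 5 were called slightly higher in 3-D grown cells, and with library size only as the scale 2 of these, DNMT1 and DNMT3B, stayed called while HELLS (log2 fold change -0.15) and ZNF445 (-0.16) were called lower. Of 26 listed, 20 were tested, 15 had a log2 fold change above 0, and 5 were called, all higher (0 lower by edgeR), against 4.54% of all tested genes called higher, and 9 had an unadjusted p below 0.05, against 21.3% of all tested genes. The median was 0.08. DNMT1, the maintenance methyltransferase, had 255 ± 1.36 CPM in 2-D and 287 ± 7.40 CPM in 3-D grown cells (SD, n = 2; log2 fold change 0.17 ± 0.03, edgeR adjusted p = 0.00516). Its partner UHRF1, which reads hemimethylated DNA, had 108, 102, 114 and 121 CPM (0.16 ± 0.04, adjusted p = 0.0219). DNMT3B, which methylates new sites, was at 1051 ± 1.20 and 1184 ± 27.9 CPM (0.17 ± 0.03, adjusted p = 0.00429).
CTCF had 132 ± 0.811 and 145 ± 0.483 CPM (0.14 ± 0.03, adjusted p = 0.0130), and the histone methyltransferase SETDB1 had 54.5 ± 0.664 and 61.4 ± 1.43 CPM (0.17 ± 0.04, adjusted p = 0.0230). These 5 differences are all below 0.2 on the log2 scale. SETDB1 (adjusted p = 0.130), UHRF1 (0.153) and CTCF (0.170) lost their calls with library size only, DNMT1 alone was called by the likelihood ratio test, and DNMT1 and DNMT3B by DESeq2. Without 2-D replicate 1, calls of SETDB1 (adjusted p = 0.134), CTCF (0.180), DNMT1 (0.0656) and DNMT3B (0.0562) were lost, without 2-D replicate 2 those of SETDB1 (0.239), UHRF1 (0.248), CTCF (0.134) and DNMT1 (0.0930), without 3-D replicate 1 that of SETDB1 (0.0895), and without 3-D replicate 2 that of UHRF1 (0.0564). ZFP57 had 0, 0, 10 and 0 counts and was not tested. It has near-identical copies on alternate contigs of hg38, at 99.904% to 100% identity, so reads may be missing and its level is uncertain.

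The list of small RNAs holds 117 small nucleolar RNAs, made from the introns of MEG8 and SNHG14, and 3 microRNA genes. Of these 120, 87 had 0 counts in all 4 libraries, but 42 of the 87 have no base in which a read could be assigned to them alone and so were not measured. The other 45 have such bases, though SNORD113-8, SNORD114-12, SNORD114-14 and SNORD115-20 have only 1 each. Near-identical copies were not sought for these 45, so their counts of 0 do not show that they were absent. Of the 20 tested, 16 had a log2 fold change below 0 (median -0.25), as had 34 of the 46 tested SNORD genes outside the imprinted clusters (median -0.20). Of the 20, 2 were called, against 3.36% of all tested genes called lower. SNORD114-20 had 543, 460, 221 and 69 counts (-1.04 ± 0.26, SE, edgeR adjusted p = 0.0289). Its 3-D libraries lay far apart, at 10.75 and 3.849 CPM. SNORD114-21 had 644, 560, 152 and 120 counts (-1.38 ± 0.09, SE, edgeR adjusted p = 3.66e-06). These 2 calls were not followed in the alternative fits. Both genes were lower in 3-D grown cells. They are C/D box small nucleolar RNAs, named for the boxes TGATGA and CTGA printed here in capitals.
SNORD114-20, chr14:100981004-100981075, plus strand: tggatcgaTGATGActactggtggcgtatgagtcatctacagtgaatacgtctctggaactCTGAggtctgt
SNORD114-21, chr14:100981975-100982046, plus strand: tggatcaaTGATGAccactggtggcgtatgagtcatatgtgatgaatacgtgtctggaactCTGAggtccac
Both genes are 72 bases long and 84.7% identical, and each has a closer relative in the cluster, SNORD114-23 at 91.7% and SNORD114-22 at 93.1%, so reads could be split among them. Small nucleolar RNAs outside the imprinted clusters had lower sums too. The other 197 SNORD genes summed to 5539 and 4777 CPM in 2-D and 1227 and 550 CPM in 3-D grown cells. Of the 46 tested, 4 were called lower and 0 higher by edgeR, against 3.36% and 4.54% of all tested genes. The sums fell more than the median log2 fold change of the 46, -0.20, so they do not describe the typical gene. The part of the difference in sums in the SNORD114 values was not tested. The microRNA genes inside H19 and MEG3, MIR675 and MIR770, lie in exons of their hosts on the same strand and had 0 counts.

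Total counts were 30114220 to 33833778 in 2-D and 18276147 to 21154409 in 3-D libraries. Mitochondrial transcripts took 5.1 to 5.3% of the counts in 2-D and 8.33 to 8.5% in 3-D libraries. Core pluripotency markers summed to 4077 to 4176 CPM, with 0 of 7 called. Of 8 markers of the naïve state 7 were tested and 0 called, and 2, KLF17 (0.465 to 1.07 CPM) and DPPA5 (0 to 0.130 CPM), were at the edge of detection while ZFP42 had 153 to 165 CPM. Markers of the primed state summed to 1496 to 1512 CPM in 2-D and 1525 to 1569 CPM in 3-D grown cells, with 2 of 8 tested called higher (SFRP2 and SALL2), against 4.54% of all tested genes. H19, IGF2, MEST and MEG3 are also read in mesenchymal cells. Fibroblast markers summed to 462 to 469 CPM in 2-D and 472 to 517 CPM in 3-D grown cells. Of 10 listed, 8 were tested and 3 called higher (COL1A1, COL3A1 and POSTN), against 4.54% of all tested genes. COL1A2, the most abundant of the list, was not called (log2 fold change -0.04, edgeR adjusted p = 0.649), nor was PDGFRB (0.02). Of the 10, 4 averaged below 1 CPM, DCN and LUM among them. Trophoblast markers summed to 5.06 to 6.03 CPM, with 4 of 10 tested, 0 called and CGA, VGLL1 and INSL4 at 0. Endoderm (7.11 to 8.53 CPM), mesoderm (203 to 218 CPM) and neural markers (12.4 to 15.4 CPM) had 2, 5 and 5 of 8 tested and 0 called. Of the mesoderm sum, KDR alone averaged 151 CPM, and 4 of the 8 mesoderm markers averaged below 1 CPM. The part of the mitochondrial share and of these markers in the results was not tested.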

How the data were processed

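Elf1 cells gave 2 libraries of 2-D and 2 of 3-D grown cells, separate biological replicates. RNA was depleted of ribosomal RNA. The authors trimmed reads with Trim Galore 0.6.3, mapped them to hg38 with HISAT2 2.1.0 and counted them per gene with featureCounts 1.6.4 on GENCODE. Treatment of multi-mapping reads is not given in the sources used here. The deposited per-library files hold raw counts, without normalization. The deposited normalized table, which also holds the authors' DESeq2 fold changes and p-values, was not used.

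Of 60564 identifiers, 60295 were matched to symbols of GENCODE 44 and the other 269 held 0.122% of the counts. Of the 10 genes, 4 have the same model version in both releases. Genes were tested with edgeR 4.0.16 (R 4.3.3; TMM, filterByExpr with a minimum count of 10, quasi-likelihood test) with culture as the only term, and p-values were adjusted by Benjamini-Hochberg over the 22555 tested genes, with a threshold of 0.05. Log2 fold changes are 3-D over 2-D. Near-identical copies were sought with minimap2 2.31 (at least 80% of the transcript at 98% identity). Named genes are the 10, each called gene of the lists, and the gene with the highest level per length in each domain; others named beside them were chosen after their values were seen. The 10 genes and all lists were chosen with earlier results of these data known.

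Counts of the replicates differed by more than sampling noise (chi-square per degree of freedom 2.27 in 2-D and 3.92 in 3-D), so each was kept as 1 sample, and the 3-D libraries are less deep. Intervals on pooled counts cover counting error only. Alternatives were DESeq2 size factors, library size only, edgeR's likelihood ratio test, DESeq2 1.42.0, no filter, a replicate block, a minimum of 10 counts per gene in all libraries, and leaving out each library.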

Additional observations from a re-analysis of the deposited data

How the results depend on the processing

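SNRPN was called under all 11 alternatives, with adjusted p of at most 0.00134. Of the log2 fold changes, 3 changed sign, none of them called in the fit that changed it: MEG3 and NNAT were -0.023 and -0.0344 with library size only, and KCNQ1OT1 ranged from -0.1233 to 0.0571 over the fits without 1 library. Of the 10 genes, 4 were called, against 2 with the likelihood ratio test, 1 with DESeq2 and 2 with at least 10 counts in every library, where CDKN1C could not be tested, and 1 to 4 when 1 library was left out. Among the other imprinted genes, 3 were called, against 6 with library size only, 1 with DESeq2, 5 without a filter, and 0 to 6 when 1 library was left out. Of the regulators, 5 were called, against 4 with library size only, of which 2 were others and lower, 1 with the likelihood ratio test, 2 with DESeq2, and 1 to 7 when 1 library was left out. The median of the 8 tested genes moved from 0.0015 to -0.0631 with library size only, beside a shift of -0.0646 over all genes. The other causes were not tested. DESeq2 gave no adjusted p for CDKN1C, SNURF and AIRN. Over all genes it called 511 higher and 284 lower, and the likelihood ratio test 651 and 488, against 1024 and 758, and the fits without a 2-D library 520 and 326, and 448 and 344.

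No shared effect of same-numbered libraries was seen (correlation of their deviations -0.012). Whether the libraries were made in pairs is not stated, and this value cannot decide it. With the replicate block, 4 of the 10 genes, 4 other imprinted genes and 5 regulators were called, with a median of 0.0007, and 1223 genes were higher and 944 lower over all genes. A fit without 1 library leaves 1 sample in an arm, which is assumed to vary like the other group. H19, IGF2, PEG3 and CDKN1C are limited by few counts, at most 41 in a library, and H19 and CDKN1C also by their copies.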

Other observations

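NAP1L4 of 11p15.5, which has a near-identical copy on another contig, had 17.5 CPM in 2-D replicate 1 and 31.3 to 33.8 CPM in the other 3 libraries. Replicates of 1 condition thus differed more than the conditions did. MAGEL2 of 15q11-q13, a paternally expressed ubiquitin ligase regulator, had 1.103 and 1.04 CPM in 2-D and 0.584 and 1.004 CPM in 3-D grown cells, and NDN beside it 14.7, 16.6, 14.5 and 13.2 CPM, neither called by edgeR (adjusted p = 0.493 and 0.302). Counts of SNURF per 100 of SNRPN were 8.56 and 6.20 in 2-D and 3.97 and 6.40 in 3-D grown cells, so their ratio overlapped between the conditions. MIR335, the microRNA gene inside an intron of MEST, had 6, 12, 1 and 0 counts.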
